A study of Mus musculus with 18 samples.

Results

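The 10 genes followed here belong to major histocompatibility complex (MHC) class I antigen presentation, out of 55414 genes in the count table, in 6 groups of C2C12 myotubes. They are the heavy chains H2-K1, H2-D1, H2-Q4, H2-T22 and H2-T23, the light chain B2m, the peptide transporter subunits Tap1 and Tap2, the loading chaperone Tapbp and the transactivator Nlrc5. The members were named in a list and matched to their gene IDs by symbol, and all 10 of 10 were found and had at least 10 counts in total. The list was drawn up with results of these same libraries known, and which values chose it is not stated. All silencing comparisons were treated as used in the choice, so the values of the members under silencing are a description, and counts of members past a threshold there are no independent test. Palmitic acid against BSA was treated as not used and was tested, in libraries that also enter the silencing comparisons. Whether it was used in the choice could not be checked. Differences between siRNAs in the response to palmitic acid are made from the silencing comparisons, so they are not independent of the choice.

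C2C12 is a mouse myoblast line that fuses into multinucleated myotubes in culture. Confluent cells were transfected in differentiation medium with pools of non-targeting siRNA (siNTC), siRNA against Erk3 (the gene Mapk6) or siRNA against Mk5 (the gene Mapkapk5). At day 6 of differentiation they were treated for 16 h with bovine serum albumin (BSA) vehicle or with 0.5 mM palmitic acid (PA). The PA was bound to BSA and given in medium without serum. The groups were siNTC BSA, siErk3 BSA, siMk5 BSA, siNTC PA, siErk3 PA and siMk5 PA, with 3 poly(A) RNA-seq libraries each, 18 in all. All groups are 1 cell line that went through transfection with an siRNA pool, with no untransfected group among them, and the labels do not say whether the 3 libraries of a group were separate cultures, so p-values measure the spread between these libraries, which may be technical.

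MHC class I molecules display peptides from inside the cell to CD8 T cells. Peptides cut by the proteasome are pumped into the endoplasmic reticulum by the transporter TAP, and tapasin, calreticulin and ERp57 hold the heavy chain with beta-2 microglobulin at that transporter until a peptide is bound. Nearly all nucleated cells make class I, resting skeletal muscle makes little of it, and interferons raise it through IRF and related factors and through NLRC5, which acts at the SXY module of class I promoters.

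By the GRCm39 coordinates of the count table, B2m lies on mouse chromosome 2 (121978167 to 121983564). Tapbp (34134873 to 34148266), H2-K1 (34214991 to 34219321), Tap1 (34406527 to 34416199), Tap2 (34422501 to 34435295), H2-D1 (35481706 to 35486475), H2-Q4 (35598593 to 35604266), H2-T23 (36340665 to 36343747) and H2-T22 (36348020 to 36353639) lie in this order in the H2 locus of chromosome 17, and Nlrc5 is on chromosome 8 (95160984 to 95253900). Counts were over exons of the sense strand, and Tapbp shared 149 exonic bases (4.11% of its exonic length) with Zbtb22 on the same strand. Of all 100-base windows of the H2-T22 transcript, 13.8% were also found in transcripts of other genes, H2-T10 among them, and the share was 8.08% for H2-T23, 4.61% for H2-D1, 2.82% for H2-Q4 and 0 for H2-K1, B2m, Tap1, Tap2 and Nlrc5. Counts of H2-T22, H2-T23, H2-D1 and H2-Q4 are therefore less certain. The line comes from a C3H mouse, whose H2 haplotype is not that of the C57BL/6 reference genome, and the effect of this on the counts was not tested.

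The promoters of the members are shown first, because class I promoters are the textbook example of an interferon-responsive module and the members are compared below for moving together. RefSeq windows of 250 bases before to 50 bases after the gene start were at hand for 8 of the 10 genes (GRCm38.p6, C57BL/6 sequence), without Tap2 and Nlrc5. The windows printed are chr17:34000298-34000597 (minus strand) for H2-K1, chr17:35262844-35263143 (plus) for H2-D1, chr17:35379367-35379666 (plus) for H2-Q4, chr2:122147437-122147736 (plus) for B2m, chr17:34187306-34187605 (plus) for Tap1 and chr17:33919228-33919527 (plus) for Tapbp. H2-K1 had 2 starts in the table and the first was used. Capitals mark letters that match, on either strand, the core of the interferon-stimulated response element (ISRE) as GAAANNGAA or GAANNGAAA, kappa B as GGGNNNTCC, the X2 box as TGACG or the Y box as CCAAT.
H2-K1: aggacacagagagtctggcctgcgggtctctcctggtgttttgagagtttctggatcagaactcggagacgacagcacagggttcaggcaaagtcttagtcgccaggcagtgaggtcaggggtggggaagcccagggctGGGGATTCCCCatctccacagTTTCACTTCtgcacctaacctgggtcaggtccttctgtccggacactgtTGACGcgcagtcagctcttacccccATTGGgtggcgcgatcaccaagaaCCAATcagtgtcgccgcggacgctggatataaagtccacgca
H2-D1: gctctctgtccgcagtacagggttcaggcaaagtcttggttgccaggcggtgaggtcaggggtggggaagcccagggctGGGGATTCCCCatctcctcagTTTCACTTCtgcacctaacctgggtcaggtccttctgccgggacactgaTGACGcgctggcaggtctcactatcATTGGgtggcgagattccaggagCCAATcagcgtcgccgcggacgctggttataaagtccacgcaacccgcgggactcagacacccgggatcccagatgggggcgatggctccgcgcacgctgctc
H2-Q4: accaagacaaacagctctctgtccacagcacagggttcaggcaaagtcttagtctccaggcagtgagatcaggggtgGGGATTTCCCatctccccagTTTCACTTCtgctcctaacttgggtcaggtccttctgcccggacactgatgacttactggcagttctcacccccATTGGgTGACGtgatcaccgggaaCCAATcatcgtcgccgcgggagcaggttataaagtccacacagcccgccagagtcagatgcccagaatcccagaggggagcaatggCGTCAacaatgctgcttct
B2m: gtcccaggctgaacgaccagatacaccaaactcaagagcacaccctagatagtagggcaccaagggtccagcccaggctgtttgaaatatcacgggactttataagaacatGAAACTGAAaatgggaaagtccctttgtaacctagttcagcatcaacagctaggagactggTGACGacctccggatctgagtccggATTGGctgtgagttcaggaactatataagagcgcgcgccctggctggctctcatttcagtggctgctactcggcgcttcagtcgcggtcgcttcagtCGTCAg
Tap1: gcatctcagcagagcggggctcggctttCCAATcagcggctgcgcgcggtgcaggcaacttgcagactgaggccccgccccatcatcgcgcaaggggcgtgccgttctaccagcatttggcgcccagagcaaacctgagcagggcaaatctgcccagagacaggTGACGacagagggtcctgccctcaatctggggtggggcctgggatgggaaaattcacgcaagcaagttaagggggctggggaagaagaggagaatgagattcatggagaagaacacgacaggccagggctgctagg
Tapbp: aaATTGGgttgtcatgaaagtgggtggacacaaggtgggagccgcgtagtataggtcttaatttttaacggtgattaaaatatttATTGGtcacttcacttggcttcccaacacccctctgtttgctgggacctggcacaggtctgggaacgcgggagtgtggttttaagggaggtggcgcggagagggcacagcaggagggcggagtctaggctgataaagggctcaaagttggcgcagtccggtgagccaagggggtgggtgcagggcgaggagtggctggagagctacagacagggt

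The promoters of H2-K1, H2-D1 and H2-Q4 shared kappa B letters followed at the same short distance by TTTCACTTC, the GAANNGAAA form read on the other strand. Closer to the start, TGACG came before ATTGG in H2-K1 and H2-D1. At the like place before ATTGG, H2-Q4 read TGACT, which is not a match. The TGACG marked in H2-Q4 just after ATTGG is another stretch. The ISRE letters lay at -90 to -82 from the start in H2-K1, at -150 to -142 in H2-D1 and at -153 to -145 in H2-Q4, with the first base of the transcript as 1. The H2-K1 positions depend on which of its 2 starts is used. From the start used, its CCAAT lay at 9 to 13, while that of H2-D1 lay at -53 to -49 and that of H2-Q4 at -55 to -51. In B2m the other form, GAAACTGAA, lay at -139 to -131, with TGACG at -78 and ATTGG at -53. H2-T22 (chr17:36042693-36042992, minus strand) held TTCACTTTC at -190 to -182, and H2-T23 (chr17:36032652-36032951, minus strand) held TTCTCTTTC at -123 to -115. Tap1 and Tapbp had neither ISRE form in these windows. Either form was found in 6 of the 8 promoters and in 14.8% of all 32851 RefSeq promoter windows of this length. Kappa B letters were in 3 of the 8 and in 17.8% of all windows, TGACG in 6 of the 8 and in 20.8%, CCAAT in 8 of the 8 and in 37.4%, and TTCNNNGAA, the letters of the GAS element, in 0 of the 8 and in 8.3%. The 2 forms taken alone were each in 3 of the 8, against 8.56% of all windows for GAAANNGAA and 7.52% for GAANNGAAA. The 2 ISRE forms can overlap each other, and the 2 kappa B matches in each of H2-K1, H2-D1 and H2-Q4 are 1 stretch read on both strands. These are matches of letters in a reference sequence, and no factor was measured at them. The second ISRE form, GAANNGAAA, was added after these promoter sequences had been read. The counts of members with that form or with either form are therefore not independent of the sequences and describe them only.

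**Figure D1:**
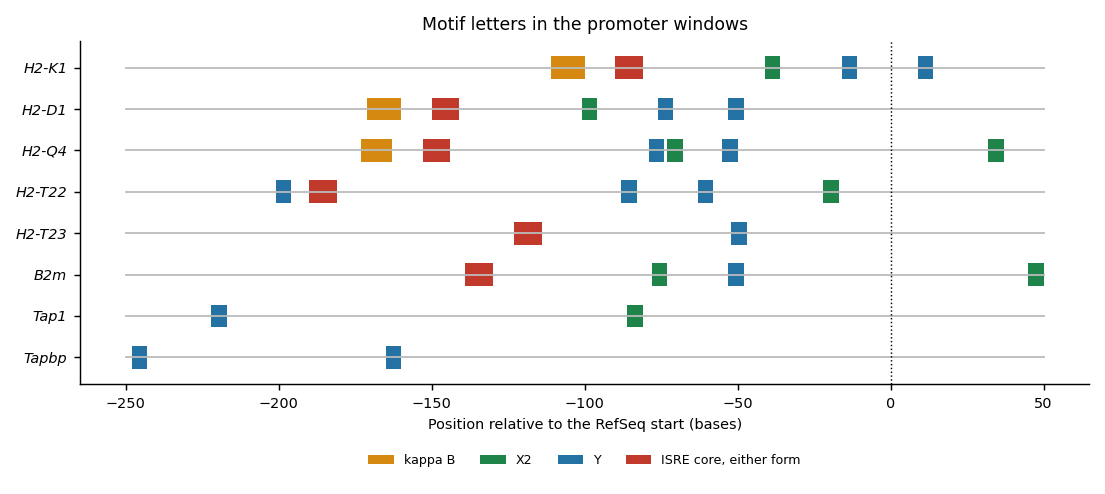
Position of the motif letters in the promoter windows of the 8 members in the RefSeq table, from 250 bases before to 50 bases after the start (dotted line). The x axis is in bases, each line is a promoter, and boxes are matches on either strand. H2-K1, H2-D1 and H2-Q4 have a kappa B box beside an ISRE box, while Tap1 and Tapbp have no ISRE box.

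The libraries held between 13041979 and 28496727 counts (median 22417470). Mapk6 was at 109 to 131 CPM in siErk3 PA against 215 to 244 CPM in siNTC PA, and at 55.2 to 60.3 against 129 to 135 CPM in BSA (log2 fold change -0.95 ± 0.056 (SE) and -1.20 ± 0.059, edgeR FDR 1.21e-12 and 1.77e-14). Mapkapk5 was at 1.18 to 2.01 CPM in siMk5 BSA against 2.32 to 2.54 in siNTC BSA, and at 2.17 to 2.43 against 2.52 to 3.92 CPM in PA, but did not pass the test (log2 fold change -0.61 ± 0.21 and -0.49 ± 0.18, edgeR FDR 0.469 in both), so silencing of Mk5 was not shown by its own mRNA. The authors report that Western blots showed both kinases to be silenced in these experiments. The 7 myotube markers were present in every library with a summed level of 8544 to 11749.6 CPM, and the summed level of the 6 immune cell markers was between 0.955 and 2.32 CPM in every library with Adgre1 at 0 counts and Ptprc and Cd3e under 10 counts in all libraries together. The summed levels of 3 endothelial and 3 adipocyte markers were 0.127 to 1.12 CPM and 0 to 0.0503 CPM. The share of counts on 18S ribosomal RNA was 8.39 to 12.9% in siMk5 BSA and 1.5 to 7.17% in the other groups, and its part in the results was not tested. In these bulk libraries a change in the number of cells of a type and a change in RNA per cell cannot be told apart.

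Levels between genes were compared as CPM per kilobase of exon. In siNTC BSA the order was B2m at 192 (range 190.0 to 196, n = 3), Tapbp at 38.5 (35.2 to 40.3), H2-K1 at 22.4 (19.5 to 24.5), H2-D1 at 20.3 (18.4 to 21.5), H2-T23 at 9.74 (8.75 to 10.4), H2-T22 at 8.96 (8.81 to 9.22), H2-Q4 at 4.78 (3.92 to 5.23), Tap2 at 4.47 (4.33 to 4.67), Tap1 at 0.617 (0.509 to 0.757) and Nlrc5 at 0.0994 CPM per kilobase (0.0779 to 0.113). The ranges of H2-K1 and H2-D1, of H2-T23 and H2-T22, and of H2-Q4 and Tap2 overlapped, so these neighbours were not separated by their spread, and the other neighbours were. The light chain was thus well above the heavy chain genes, and the transporter subunits were unequal, with Tap2 above Tap1. In siNTC PA, H2-K1 (42.7, range 40.7 to 44.7) stood above Tapbp (37.5, range 36.0 to 39.3), and Tap2 (5.44, range 5.32 to 5.57) was still above Tap1 (2.96, range 2.65 to 3.16) on this scale. The exonic length counts all annotated exons of a gene and differs from that of the canonical transcript. For Tap1 these were 5476 and 3105 bases, and for Tap2 3781 and 3976. For H2-K1 they were 2938 and 1619 bases, and for H2-D1 2579 and 2117. The order of these genes, with Tap2 above Tap1 in PA, may therefore depend on the length used, and transcript lengths were not tried.

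**Figure D2:**
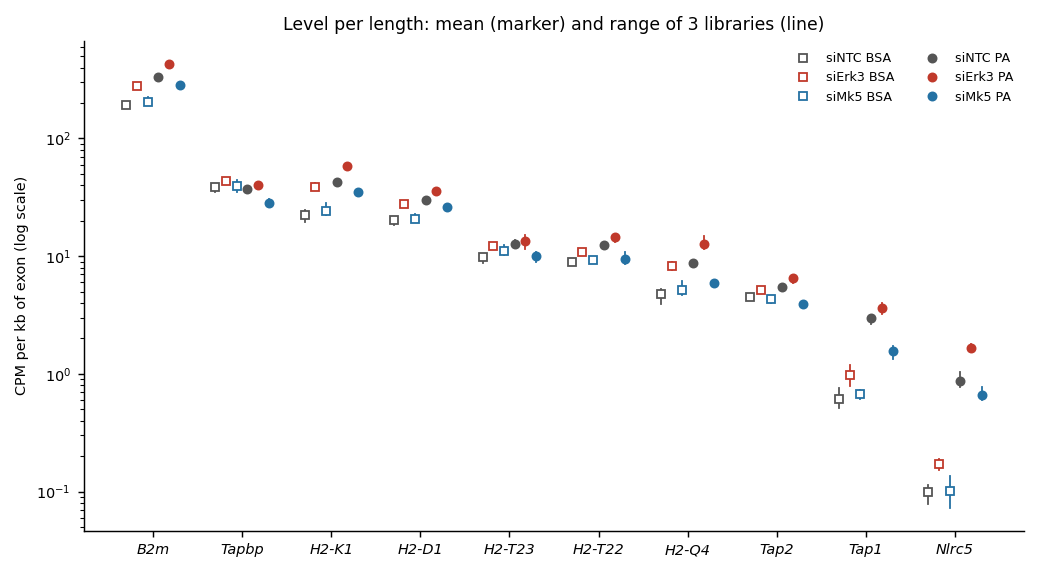
Level of each member per length in the 6 groups. The y axis is CPM per kilobase of exon on a log scale, markers are means and lines the range of 3 libraries (open squares BSA, filled circles PA). B2m is the highest gene in every group, and Nlrc5 goes from 0.0994 in siNTC BSA to 0.868 in siNTC PA.

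Palmitic acid raised 7 of the 10 members in siNTC myotubes. Nlrc5 rose 8.66-fold, Tap1 4.90-fold, H2-K1 1.90-fold, H2-Q4 1.81-fold, B2m 1.73-fold, H2-D1 1.48-fold and H2-T22 1.38-fold, while Tapbp was at 0.97 of its BSA level. The test was edgeR's over the 21772 genes with at least 10 counts, and a gene had to change over 1.3-fold, up or down, with an FDR under 0.05. In siNTC, 7 of 10 members rose and 0 fell, and 15.5% of all genes tested rose and 15.1% fell. In siErk3, 7 of 10 rose and 0 fell, with 15.8% of all genes higher and 16.3% lower. In siMk5, 4 of 10 rose and 1 fell, with 15.1% of all genes higher and 14.6% lower. The median log2 fold change of the members was 0.68 in siNTC, 0.51 in siErk3 and 0.26 in siMk5, against medians over all genes of -0.03, -0.01 and -0.01. The differences between siRNAs in these counts and medians are not independent of the choice of the members.

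In siNTC libraries H2-K1, which encodes a classical heavy chain, was at 57.3, 71.9 and 67.9 CPM in BSA and at 126, 119.5 and 131 CPM in PA. With siErk3 the same gene was at 122, 109 and 112 CPM in BSA and at 163, 174 and 181 CPM in PA. With siMk5 it was at 65.2, 67.6 and 82.1 CPM in BSA and at 101, 97.9 and 108 CPM in PA. H2-K1 was thus higher in PA than in BSA in all libraries of each siRNA, the 3 groups in PA did not overlap, and siMk5 BSA overlapped siNTC BSA. The rise with PA had a log2 fold change of 0.93 ± 0.073 (SE) in siNTC, 0.60 ± 0.069 in siErk3 and 0.51 ± 0.073 in siMk5 (edgeR FDR 3.98e-12, 1.1e-08 and 5.6e-07). The siErk3 BSA mean of 114 ± 6.89 CPM (SD, n = 3) was set against a siNTC PA mean of 126 ± 5.95 CPM, and these libraries overlapped.

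H2-D1, the other classical heavy chain, had lower levels with a like order. In BSA it was at 53.9, 47.5 and 55.5 CPM with siNTC, at 74.1, 67.7 and 71.1 with siErk3 and at 50.1, 52.2 and 58.3 with siMk5. In PA its levels were 77.6, 75.4 and 78.2 CPM with siNTC, 88.9, 96.7 and 92.4 with siErk3 and 68.9, 62.6 and 70.8 with siMk5. All PA libraries were above the BSA libraries of the same siRNA. The log2 fold change with PA was 0.56 ± 0.062 in siNTC and 0.39 ± 0.059 in siErk3, both past the criteria (FDR 4.65e-09 and 1.58e-06), and 0.33 ± 0.062 in siMk5, where the FDR was 3.58e-05 but the change was under 1.3-fold. Without siErk3 BSA replicate 2 or 3 or siErk3 PA replicate 2 or 3 the siErk3 value was 0.34 to 0.38 and also under 1.3-fold, and without siMk5 BSA replicate 3 or siMk5 PA replicate 2 the siMk5 value was 0.40 or 0.38 and past the criteria.

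H2-Q4, a non-classical heavy chain of the Q region, was at 10.2, 13.6 and 13.5 CPM in siNTC BSA, at 22.9, 19.7 and 21 in siErk3 BSA and at 12, 12.2 and 16.1 in siMk5 BSA. In PA it was at 22.3, 23.2 and 23 CPM with siNTC, at 29.5, 30.9 and 38.1 with siErk3 and at 15, 14.7 and 16.0 with siMk5. The siMk5 PA libraries overlapped the siMk5 BSA libraries and lay below all libraries of the other PA groups. PA raised H2-Q4 in siNTC (log2 fold change 0.85 ± 0.11, FDR 5.59e-08) and in siErk3 (0.62 ± 0.093, FDR 1.1e-06), and gave 0.18 ± 0.11 in siMk5 (FDR 0.194).

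The heavy chains of the T region had smaller log2 fold changes than H2-K1 with PA in siNTC. H2-T22 was at 30.1 to 31.5 CPM in siNTC BSA, 36.4 to 38.3 in siErk3 BSA, 30.7 to 32.3 in siMk5 BSA, 41.5 to 43.4 in siNTC PA, 45.3 to 51.9 in siErk3 PA and 29.4 to 36.8 in siMk5 PA, so that siMk5 PA overlapped the siNTC and siMk5 BSA libraries. It rose with PA in siNTC (log2 fold change 0.46 ± 0.069, FDR 1.14e-06) and siErk3 (0.41 ± 0.065, FDR 2.42e-06), where the value was 0.37 and under 1.3-fold without siErk3 PA replicate 2 or 3, and gave 0.02 ± 0.07 in siMk5 (FDR 0.834). H2-T23, which encodes Qa-1, the ligand of the NKG2A receptor of natural killer cells, ranged over 25.3 to 30.2, 33.6 to 36.3 and 29.4 to 35.9 CPM in siNTC, siErk3 and siMk5 BSA, and over 33.7 to 40.0, 33.2 to 43.9 and 25.9 to 31.1 CPM in PA. Its change with PA did not pass the criteria in any siRNA, with log2 fold changes of 0.36 ± 0.09 in siNTC (FDR 0.0012), 0.15 ± 0.085 in siErk3 (FDR 0.164) and -0.15 ± 0.091 in siMk5 (FDR 0.209). In siNTC the change of H2-T23 was 1.29-fold, and it was past the criteria, with a log2 fold change of 0.39, without siNTC BSA replicate 3 or without siNTC PA replicate 3.

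B2m encodes the light chain that every class I molecule needs. It was at 164, 169 and 163 CPM in siNTC BSA, at 248, 225 and 240.3 in siErk3 BSA and at 166, 169 and 192 in siMk5 BSA. In PA the values were 283, 275 and 299 CPM with siNTC, 363, 373 and 376 with siErk3 and 251, 236 and 244 with siMk5. The 3 PA groups did not overlap, and each was above the BSA libraries of the same siRNA. PA raised B2m by a log2 fold change of 0.79 ± 0.051 in siNTC, 0.64 ± 0.05 in siErk3 and 0.47 ± 0.051 in siMk5 (FDR 3.79e-14, 2.13e-12 and 2.41e-09).

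Tap1 and Tap2 encode the subunits of the peptide transporter. Tap1 was at 4.14, 3.21 and 2.79 CPM in siNTC BSA, at 6.59, 4.34 and 5.12 in siErk3 BSA and at 3.71, 3.32 and 3.97 in siMk5 BSA, which is 59 to 156 counts per library. In PA it was at 16.8, 14.5 and 17.3 CPM with siNTC, at 17.5, 21.8 and 20.1 with siErk3 and at 9.53, 7.36 and 8.51 with siMk5. Every PA library was above every BSA library, and siMk5 PA lay between the BSA libraries and the other PA groups. PA raised Tap1 by a log2 fold change of 2.29 ± 0.14 in siNTC, 1.89 ± 0.12 in siErk3 and 1.21 ± 0.15 in siMk5 (FDR 1.36e-14, 1.66e-14 and 4.68e-08). Tap2 lay between 16.4 and 17.7 CPM in siNTC BSA, 18.2 and 20.7 in siErk3 BSA, and 15.1 and 17 in siMk5 BSA. In PA it lay between 20.1 and 21.1 CPM with siNTC, 22.3 and 26.2 with siErk3, and 14.6 and 15 with siMk5, the last below all 15 other libraries. The log2 fold change of Tap2 with PA was 0.28 ± 0.075 in siNTC (FDR 0.00275), 0.35 ± 0.07 in siErk3 (FDR 9.63e-05) and -0.13 ± 0.078 in siMk5 (FDR 0.18), each under 1.3-fold. Without siErk3 BSA replicate 1 or siErk3 PA replicate 1 the siErk3 value was 0.38 or 0.40 and past the criteria.

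Tapbp encodes tapasin, the chaperone that tethers class I to the transporter. It was at 128, 146 and 146 CPM in siNTC BSA, at 164, 157 and 154 in siErk3 BSA and at 128, 140.1 and 162 in siMk5 BSA. In PA it was at 143, 135 and 130.5 CPM with siNTC, at 137, 145 and 156 with siErk3 and at 99.9, 95.9 and 109.9 with siMk5. The siMk5 PA libraries were below all other libraries, and siErk3 BSA lay above siNTC in both media without overlap. Tapbp fell with PA in siMk5 (log2 fold change -0.49 ± 0.068, FDR 3.43e-07) and gave -0.04 ± 0.067 in siNTC (FDR 0.65) and -0.12 ± 0.066 in siErk3 (FDR 0.152).

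Nlrc5 encodes the transactivator of the class I genes. It was at 0.913, 0.958 and 0.662 CPM in siNTC BSA, at 1.31, 1.48 and 1.61 in siErk3 BSA and at 0.611, 1.16 and 0.825 in siMk5 BSA, or 13 to 45 counts per library. In PA it was at 6.70, 6.61 and 8.79 CPM with siNTC, at 14, 13 and 15.1 with siErk3 and at 6.56, 5.12 and 5.11 with siMk5, or 99 to 360 counts. All PA libraries were above all BSA libraries, and siErk3 was above siNTC in each medium without overlap. PA raised Nlrc5 by a log2 fold change of 3.12 ± 0.19 in siNTC, 3.25 ± 0.15 in siErk3 and 2.71 ± 0.2 in siMk5 (FDR 1.77e-14, 6.43e-18 and 8.76e-13). Across the members, the PA groups of the siRNAs were ordered siErk3, siNTC, siMk5 by their means in every gene.

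**Figure D3:**
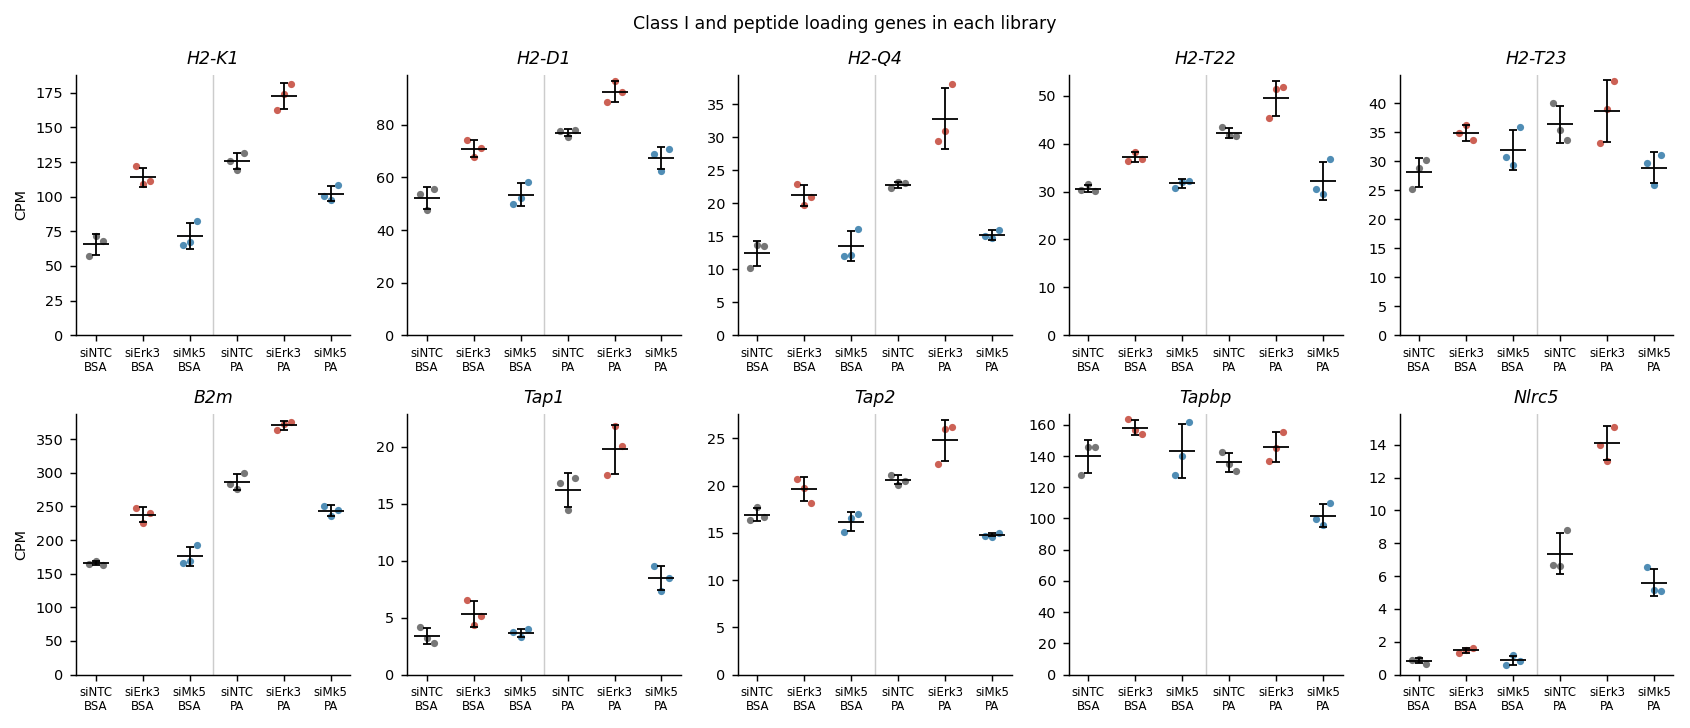
CPM of the 10 members in each of the 18 libraries. Points are libraries, horizontal bars the mean and whiskers the SD of 3 libraries, and each y axis starts at 0. With PA, the siErk3 libraries have the highest mean and the siMk5 libraries the lowest mean in all 10 panels, and in BSA the siMk5 libraries overlap the siNTC libraries.

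With Erk3 silenced, the means of all 10 members were above those with siNTC in both media. These values are treated as part of the choice of the members, so the edgeR criteria only describe them. In BSA, 5 of 10 members were past the criteria and higher (H2-K1, H2-D1, H2-Q4, B2m and Tap1), where 0.588% of all genes were, and nothing is read from this difference. The log2 fold changes over siNTC in BSA were 0.79 ± 0.073 (SE) for H2-K1, 0.75 ± 0.11 for H2-Q4, 0.69 ± 0.16 for Tap1, 0.52 ± 0.051 for B2m and 0.44 ± 0.062 for H2-D1. Nlrc5 had a like size of 0.80 ± 0.26 at its few counts, and H2-T23, H2-T22, Tap2 and Tapbp were between 0.17 and 0.30. The median of the members was 0.48, against 0.02 over all genes. In PA, 3 of 10 were past the criteria and higher, where 0.432% of all genes were. These were Nlrc5 with 0.93 ± 0.11, H2-Q4 with 0.52 ± 0.094 and H2-K1 with 0.46 ± 0.069. B2m with 0.37 ± 0.049 was 1.296-fold higher, just under the limit of 1.3, and the others were between 0.09 and 0.30. The median of the members in PA was 0.28, against 0.00 over all genes. Tap1 was not past the criteria in BSA without siNTC BSA replicate 2 or 3 or siErk3 BSA replicate 1 or 3, with log2 fold changes of 0.68, 0.57, 0.54 and 0.74. B2m was past them in PA without siNTC PA replicate 3 (0.41) or siErk3 PA replicate 1 (0.39).

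With Mk5 silenced, the members had log2 fold changes near 0 over siNTC in BSA and below 0 in PA, values that are likewise a description of what the members were chosen on. In BSA, 0 of 10 members were past the criteria by edgeR or DESeq2, 0 of 10 had an unadjusted edgeR p under 0.05, and 0.0643% of all genes were past the criteria in either direction. The log2 fold changes were between -0.07 for Tap2 and 0.17 for H2-T23, with a median of 0.07 against 0.01 over all genes. In PA, all 10 log2 fold changes were below 0, 5 of 10 members were past the criteria and lower (Tap1, H2-Q4, Tap2, Tapbp and H2-T22), where 0.491% of all genes were, and nothing is read from this difference. Tap1 was at -0.93 ± 0.12, H2-Q4 at -0.58 ± 0.1, Tap2 at -0.48 ± 0.076, Tapbp at -0.42 ± 0.068 and H2-T22 at -0.39 ± 0.068. Nlrc5 had -0.39 ± 0.13, H2-T23 -0.33 ± 0.089, H2-K1 -0.30 ± 0.071, B2m -0.23 ± 0.05 and H2-D1 -0.19 ± 0.06. The median was -0.39, against 0.00 over all genes. The members past the criteria numbered 3 without siNTC PA replicate 1 or without siMk5 PA replicate 2, when H2-T22 (-0.37 and -0.33) and Tapbp (-0.38 and -0.38) were under 1.3-fold, and H2-T22 (-0.35) was also under it without siMk5 PA replicate 1.

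**Figure D4:**
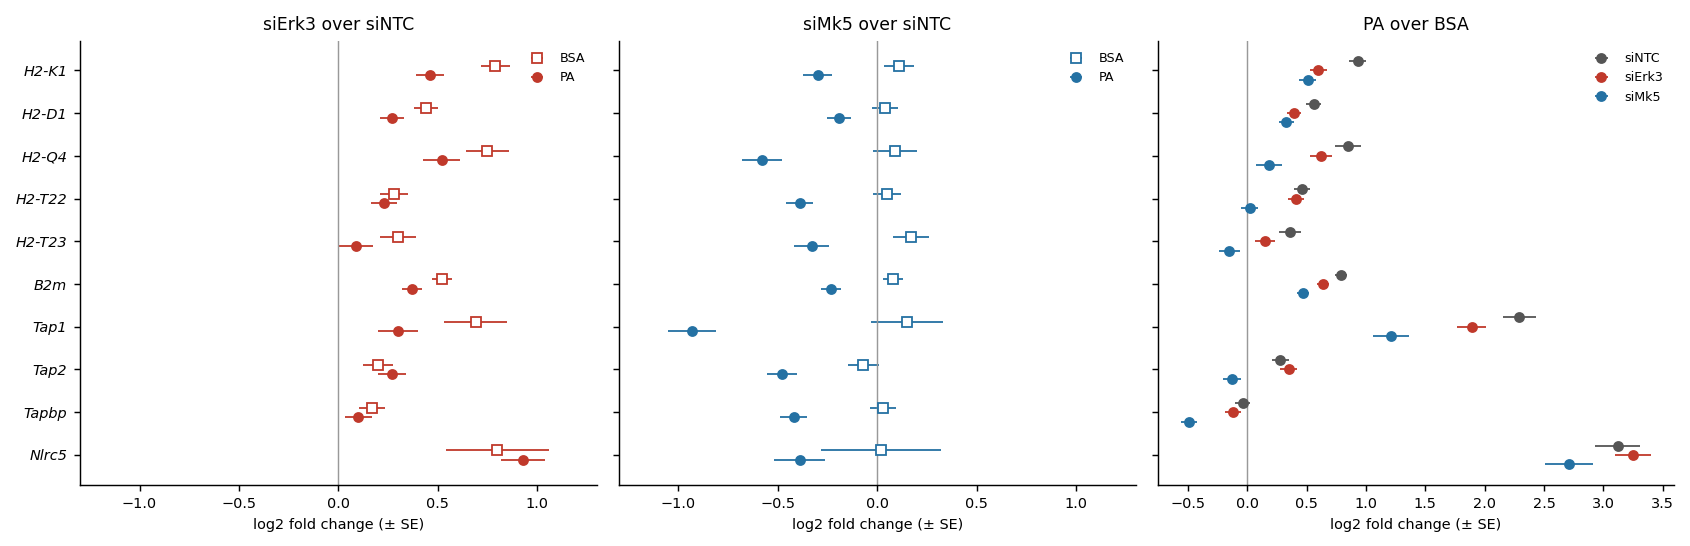
Log2 fold changes of the members with their standard errors for siErk3 over siNTC, siMk5 over siNTC (open squares BSA, filled circles PA) and PA over BSA in each siRNA. With siMk5, the BSA values lie between -0.07 and 0.17 and the PA values between -0.93 and -0.19. With PA, Nlrc5 and Tap1 have the highest values and Tapbp lies at or below 0.

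The response to PA under silencing can be set against the response in siNTC for each member, as a difference of log2 fold changes. With siMk5 the difference was below 0 in all 10, at -1.08 ± 0.22 (SE) for Tap1, -0.67 ± 0.15 for H2-Q4, -0.51 ± 0.13 for H2-T23, -0.45 ± 0.096 for Tapbp, -0.44 ± 0.098 for H2-T22, -0.41 ± 0.1 for H2-K1, -0.41 ± 0.11 for Tap2, -0.40 ± 0.33 for Nlrc5, -0.31 ± 0.071 for B2m and -0.23 ± 0.088 for H2-D1. With siErk3 it was between -0.40 ± 0.19 for Tap1 and 0.13 ± 0.3 for Nlrc5. Since this difference is made from the silencing comparisons, its test values are no independent test of the members and are not reported.

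Genes of the neighbouring steps were taken from lists written from textbook knowledge, with the direction of interferon-induced genes in these data known, so their directions are not independent of it. Of 58 such genes, 57 were in the table and 37 were tested. With siErk3 in BSA, 4 of 37 rose, against 0.588% of all genes, and with siErk3 in PA 0 of 37 passed by edgeR or DESeq2 (6 of 37 at an unadjusted edgeR p under 0.05). With siMk5 in BSA 0 of 37 passed by either tool (1 of 37 at an unadjusted edgeR p under 0.05), and with siMk5 in PA 5 of 37 fell, against 0.491% of all genes, or 2 of 37 without siNTC PA replicate 1 or without siMk5 PA replicate 2. With PA, 16 of 37 rose and 4 fell in siNTC, 17 rose and 4 fell in siErk3, and 13 rose and 4 fell in siMk5, where 15.5, 15.8 and 15.1% of all genes rose and 15.1, 16.3 and 14.6% fell. The median log2 fold change of the 37 was 0.08 and 0.07 with siErk3 in BSA and PA, 0.05 and -0.08 with siMk5, and 0.33, 0.38 and 0.11 with PA in siNTC, siErk3 and siMk5, against medians over all genes of 0.02 and 0.00, 0.01 and 0.00, and -0.03, -0.01 and -0.01.

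Among 10 genes of peptide supply and chaperones, 2 rose with siErk3 in BSA (0.588% of all genes), 3 fell with siMk5 in PA (0.491% of all genes), and 7, 7 and 5 rose with PA in siNTC, siErk3 and siMk5 (15.5, 15.8 and 15.1% of all genes). Psmb8, a catalytic subunit of the immunoproteasome, was at 0.281, 0.792 and 0.567 CPM in siNTC BSA and at 2.03, 1.69 and 1.72 CPM in siErk3 BSA. In PA it was at 3.73, 3.51 and 4.95 CPM with siNTC and at 1.57, 1.54 and 1.96 CPM with siMk5. Neither pair of groups overlapped, with log2 fold changes of 1.61 ± 0.27 for siErk3 in BSA (edgeR FDR 0.00058) and -1.26 ± 0.19 for siMk5 in PA (FDR 8.89e-05). Psmb9, another such subunit, had 3 to 27 counts per library, with 1.72 ± 0.43 for siErk3 in BSA (FDR 0.0411) and -1.90 ± 0.40 for siMk5 in PA (FDR 0.00845). The call for siErk3 was lost by DESeq2 (adjusted p 0.0961) and without siNTC BSA replicate 1, 2 or 3 or siErk3 BSA replicate 1 or 2 (1.45 to 1.98), and the call for siMk5 without siNTC PA replicate 1 (-1.71) or siMk5 PA replicate 2 (-1.65). Psmb10 fell with siMk5 in PA (-0.47 ± 0.11, FDR 0.0371), a call lost without siNTC PA replicate 1 or 2 or siMk5 PA replicate 1 or 2 (-0.45 to -0.39), with edgeR's filterByExpr (FDR 0.0594) and in a fit of only the groups compared (FDR 0.0521). The rise of Psmb9 with PA in siErk3 (0.74 ± 0.29, FDR 0.0381) was lost by DESeq2 (adjusted p 0.129) and with no filter on counts (FDR 0.0509). It was also lost without siErk3 BSA replicate 3 or siErk3 PA replicate 1, 2 or 3 (0.49 to 0.78).

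The general chaperones of the endoplasmic reticulum rose with PA in each siRNA. Calr (calreticulin) was at 1141 ± 35.9 CPM (SD, n = 3) in siNTC BSA and 4244 ± 156 CPM in siNTC PA, and rose by a log2 fold change of 1.90 ± 0.047, 1.92 ± 0.047 and 1.77 ± 0.047 in siNTC, siErk3 and siMk5 (FDR 1.86e-24, 1.05e-24 and 1.08e-23). Pdia3 (ERp57) rose by 1.51, 1.54 and 1.40 and Canx (calnexin) by 1.17, 1.21 and 1.05, and Tapbpl, which encodes the tapasin-related chaperone TAPBPR, rose by 0.50, 0.74 and 0.54, the first of these under 1.3-fold (0.37) without siNTC PA replicate 1. Calr, Canx and Pdia3 did not pass with either silencing in BSA or PA, and Tapbp passed as higher with PA in no siRNA.

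Of 16 other class I and class I-like genes, 15 were in the table and 11 were tested. Under silencing 0 of 11 passed by edgeR in each of the 4 comparisons (by DESeq2 also 0, and 0, 1, 0 and 1 of 11 at an unadjusted edgeR p under 0.05 for siErk3 in BSA and PA and siMk5 in BSA and PA). With PA, 3 of 11 rose and 3 fell in siNTC, and 4 rose and 3 fell in siErk3 and in siMk5. Of all genes, 15.5, 15.8 and 15.1% rose with PA and 15.1, 16.3 and 14.6% fell in siNTC, siErk3 and siMk5. H2-M3, which presents formylated peptides, rose in siNTC, siErk3 and siMk5 (log2 fold change 1.27 ± 0.16, 1.07 ± 0.14 and 0.93 ± 0.16), as did H2-Q1 (0.91, 0.45 and 0.49) and H2-T24 (0.98, 1.15 and 1.57). The class I-like genes Mr1, which presents vitamin B metabolites, Fcgrt, the neonatal Fc receptor, and Cd1d1, which presents lipids, fell in each siRNA. Mr1 had log2 fold changes of -0.77 ± 0.085, -0.89 ± 0.082 and -0.80 ± 0.084 (FDR 4.07e-09, 1e-10 and 1.96e-09), Fcgrt -0.52, -0.70 and -0.66, and Cd1d1 -0.59, -0.73 and -0.81. In siNTC, the Cd1d1 call was lost without siNTC BSA replicate 1 (-0.41) or siNTC PA replicate 2 (-0.53), and that of H2-T24 by DESeq2, with no filter on counts (FDR 0.0544) and without siNTC BSA replicate 2 or 3 or siNTC PA replicate 1 or 3 (0.86 to 0.91). H2-Q1 was lost in siErk3 without siErk3 BSA replicate 1 or 3 or siErk3 PA replicate 1 (0.32 to 0.41) and in siMk5 without siMk5 BSA replicate 1 (0.21) or siMk5 PA replicate 3 (0.42). H2-M5 passed in siErk3 (0.95 ± 0.34) and H2-Q10 in siMk5 (2.59 ± 0.85), each at under 1 CPM, and the first was lost without siErk3 BSA replicate 1 (0.83) or siErk3 PA replicate 2 (0.86) and the second by DESeq2 and without siMk5 BSA replicate 1 (2.01).

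Of 14 regulators of class I promoters, 13 were tested, among them Stat2 and Irf9, which act together downstream of the type I interferon receptor. Stat2 was at 31.5, 33.5 and 34.8 CPM in siNTC BSA, at 174, 156 and 169 in siNTC PA and at 123, 98.9 and 112 in siMk5 PA. The siMk5 PA libraries lay between those groups without overlap. Stat2 fell with siMk5 in PA by a log2 fold change of -0.58 ± 0.065 (FDR 7.94e-07). Irf9, which binds DNA, had -0.40 ± 0.086 (FDR 0.0121), a call lost without siNTC PA replicate 1 or 3 or siMk5 PA replicate 2 (-0.38 to -0.34). With siErk3 in BSA, Irf9 rose by 0.59 ± 0.11 (FDR 0.00219) and Stat2 by 0.46 ± 0.075 (FDR 0.000432). PA raised Stat2 and Irf9 by 2.32 and 2.16 in siNTC, by 1.99 and 1.75 in siErk3 and by 1.70 and 1.79 in siMk5.

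None of the tested factors that bind the SXY module directly passed as higher in the 7 comparisons. Rfx5, a subunit of the RFX complex that binds the X1 box, fell with PA in siNTC, siErk3 and siMk5 (log2 fold change -0.67 ± 0.086, -0.76 ± 0.082 and -0.76 ± 0.085, FDR 8.01e-08, 3.22e-09 and 7.37e-09), and Rfxap, Rfxank, Creb1, Nfya, Nfyb and Nfyc passed in no comparison. Nfya missed only the limit of 1.3-fold with PA in siNTC, siErk3 and siMk5 (1.259-, 1.214- and 1.127-fold, edgeR FDR 7.96e-06, 5.4e-05 and 0.0108). Rfxap did so in siNTC (1.19-fold, FDR 0.00972) and siErk3 (1.129-fold, FDR 0.0493). Rfxank was lower in siNTC, also under that limit (0.8391 of its BSA level, FDR 0.0237). Irf2 rose with PA in each siRNA (0.70, 0.64 and 0.41), the last under 1.3-fold without siMk5 BSA replicate 1 (0.35) or siMk5 PA replicate 1 (0.33). Rela, a subunit of NF-kappa B, rose in siNTC (0.45 ± 0.05), and Irf1 in siErk3 (0.38 ± 0.049), where it was under 1.3-fold without siErk3 BSA replicate 2 or siErk3 PA replicate 1, 2 or 3 (0.35 to 0.37). Ciita, the class II counterpart of Nlrc5, had 9 counts in all 18 libraries. Of 9 class II genes, H2-Aa, H2-Ab1, H2-Eb1 and H2-Ob had 0 counts and 2 were tested, and Cd74, the invariant chain, rose with PA in each siRNA (3.03 ± 0.31, 3.68 ± 0.30 and 3.00 ± 0.33) at a level of 1.70 to 2.43 CPM in the PA groups. Ifnb1, the gene of interferon beta, had 0 counts in all 9 BSA libraries, which allows up to 3 counts in a library, and 1, 2 and 4 counts in siNTC PA, 5, 7 and 5 in siErk3 PA and 1, 1 and 2 in siMk5 PA. At these few counts it passed as higher with PA in siNTC (4.34 ± 1.5, FDR 0.0182) and siErk3 (5.43 ± 1.2, FDR 0.000447), but not in siMk5 (FDR 0.0652). The siNTC call was lost by DESeq2 (adjusted p 0.0545) and without siNTC BSA replicate 2 or 3 or siNTC PA replicate 3. The 8 other interferon genes had 0 to 7 counts in all libraries together. The PA groups also differed from BSA in markers of dividing myoblasts. The summed level of Pax7, Myf5, Mki67 and Top2a was 755 to 840.1 CPM in BSA and 287 to 388 CPM in PA. Of these 4 markers, 3 fell in each siRNA. Of the 7 myotube markers, 3, 1 and 1 fell in siNTC, siErk3 and siMk5 (Myog in each, with Mymk and Ckm in siNTC). Of all genes 15.1, 16.3 and 14.6% fell, so the myotube counts in siErk3 and siMk5 were near that share. The part of these changes in the PA responses was not tested. Under silencing, Myh3 with siErk3 in BSA (log2 fold change 0.39 ± 0.051) was the marker that passed in these lists. Among markers of other cell types, Csf1r passed as lower with PA in siNTC (-1.50 ± 0.54) and siErk3 (-1.78 ± 0.62), and Cd68 as higher in siMk5 (0.66 ± 0.25). The endothelial marker Kdr passed as higher with PA in siErk3 (5.43 ± 1.2, FDR 0.000613) and siMk5 (4.69 ± 1.4, FDR 0.00932) at few counts. It had 0 counts in all BSA libraries, 2, 1 and 0 in siNTC PA, 5, 7 and 5 in siErk3 PA and 4, 4 and 1 in siMk5 PA.

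**Figure D5:**
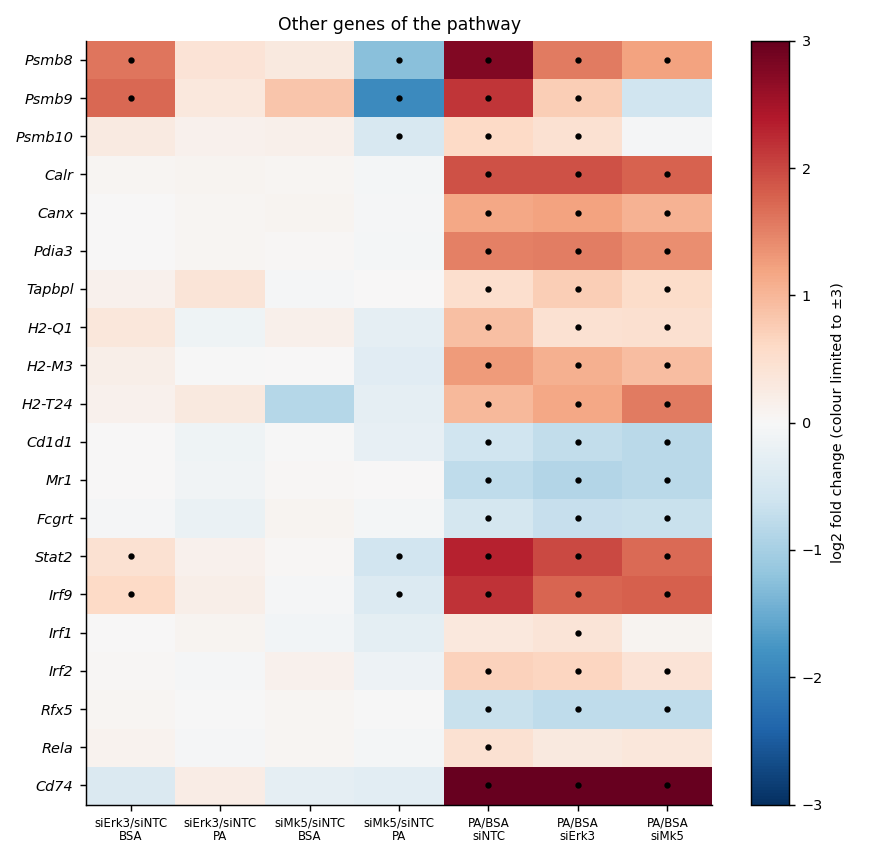
Log2 fold changes of other genes of the pathway in the 7 comparisons (colour, limited to 3 in either direction), for 20 genes of the fixed lists. Black dots mark an FDR below 0.05 with a fold change above 1.3. Psmb8, Stat2 and Irf9 carry dots for siErk3 in BSA and for siMk5 in PA, while Calr, Canx and Pdia3 carry dots for PA alone.

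Over the 18 libraries, the mean of the members' log2 CPM, each centred on its own mean, was -0.56 in siNTC BSA, -0.06 in siErk3 BSA, -0.49 in siMk5 BSA, 0.39 in siNTC PA, 0.74 in siErk3 PA and -0.03 in siMk5 PA. Among the members, B2m was nearest to this mean (root-mean-square distance 0.0886) and Nlrc5 farthest (1.13), with H2-K1 at 0.12, Tapbp at 0.496 and Tap1 at 0.563. Of the 12734 genes with at least 1 CPM on average, the 5 others with the most similar pattern were Trim12c (0.132), Ly6e (0.141), Parp12 (0.148), Shisa5 (0.153) and Ube2l6 (0.155), and a gene with no change would lie at 0.463. The libraries are shared by all of these distances, which describe the pattern only.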

How the data were processed

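Poly(A) RNA of 18 C2C12 libraries was sequenced in pairs of reads on a stranded protocol. The deposited gene counts were made by the authors by trimming, alignment with STAR to GRCm39 and featureCounts 2.0.0 with the Ensembl 105 annotation, using the reverse strand (setting 2), primary alignments and a mapping quality of at least 3, and they are not normalized. The labels also name mm10, whereas the header of the count table names GRCm39. A second deposited table of normalized values was not used. Genes were matched to GENCODE symbols by gene ID.

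Differences were computed in R 4.3.3 with edgeR 4.0.16 (quasi-likelihood test, TMM, 1 coefficient per group, all 18 libraries in 1 fit) over 21772 genes with at least 10 counts in total, with Benjamini-Hochberg adjustment over all of them and the criteria of an FDR below 0.05 and a fold change above 1.3. CPM values of single tested genes are counts scaled by TMM library sizes. The summed levels of the marker lists are CPM of the unscaled library totals, without TMM. These sums are therefore not on the same scale as the CPM of single genes. DESeq2 1.42.0, DESeq2 size factors, other filters, a replicate block, fits of the groups compared alone and leaving out each library were alternatives. The fit was tested on simulated counts. Figures and tables were made in Python 3.11.15. No pair of replicate libraries agreed within sampling noise.

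The members and the lists of other pathway genes were chosen with earlier results of these data known. The genes named are the members, Mapk6 and Mapkapk5, every gene of the lists past the criteria in any comparison, and the 5 genes nearest to the members' mean pattern. Other genes of the lists that are named, such as Rfxap or Ciita, were chosen after their values were seen. Some genes of the lists are not reported here. Counting error alone underlies the limit of 3 counts given for a count of 0.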

Additional observations from a re-analysis of the deposited data

Results flagged for a closer look

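Stat2 and Tap2 were singled out because the response to PA differed between siRNAs. The PA response of Stat2 was lower with siMk5 than with siNTC by -0.61 ± 0.1 (SE, difference of log2 fold changes, edgeR FDR 0.00314), from a log2 fold change of 2.32 in siNTC to 1.70 in siMk5. The gene belongs to a list written with the direction of interferon-induced genes in these data known. Tap2 was higher in all PA libraries than in all BSA libraries with siNTC (log2 fold change 0.28) and with siErk3 (0.35). With siMk5 it was lower in all of them (-0.13), a change that did not pass the criteria. The difference between siRNAs is made from the silencing comparisons, so for Tap2, as for the other members, its test value is not reported.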

How the results depend on the processing

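Leaving out each library in turn, 4 to 5 members (of 5) were past the criteria with siErk3 in BSA, 3 to 4 (of 3) with siErk3 in PA, 0 to 0 with siMk5 in BSA and 3 to 5 (of 5) with siMk5 in PA, and 7 to 8, 5 to 8 and 5 to 6 with PA in siNTC, siErk3 and siMk5 (of 7, 7 and 5). For the other genes of the pathway these ranges were 3 to 4, 0 to 1, 0 to 0, 2 to 5, 18 to 20, 18 to 20 and 14 to 17 in the same order. With the FDR alone and no limit on the fold change, 5 members were past it with siErk3 in PA in place of 3, and 8 other genes of the pathway with siMk5 in PA in place of 5. With no filter on counts, 1 other gene (Tapbpl) passed with siErk3 in PA in place of 0. DESeq2, DESeq2 size factors, the other filter and fits of the groups compared alone gave counts within 1.5 times those reported, and no member past the criteria changed direction.

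Same-numbered libraries did not deviate together (correlations from -0.665 to 0.263 over 9332 genes), so the numbers do not pair the samples. With the replicate number as a block, 5, 3, 0 and 5 members were past the criteria in the silencing comparisons and 7, 7 and 5 with PA, and 4, 0, 0, 5, 20, 21 and 17 other genes of the pathway. Changes under 1.3-fold were left out by the criteria whatever their FDR, as for H2-D1 with siErk3 in PA (1.204-fold, edgeR FDR 0.0159). Few counts went with wide standard errors, such as 0.26 for Nlrc5 and 0.43 for Psmb9 with siErk3 in BSA.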
